A study of Mus musculus with 16 samples.

Results

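The genes described here are Hmgcs1, Fdft1, Sqle, Lss, Cyp51 and Sc5d, which encode 6 enzymes of cholesterol synthesis, and the measurement is acetylation of histone H3 at lysine 27 (H3K27ac) in mouse liver chromatin. The working label of the set also names cholesterol uptake, but all 6 genes encode synthesis enzymes. A region of the deposited count table belonged to a gene if its midpoint lay inside that gene, or if it lay in no protein-coding gene and the gene was the nearest protein-coding one within 50 kb. This gave 49 regions of 52645 in the table, and 6 genes of 11600 that had a region. All 49 regions and all 6 genes passed the filter on low counts, which left 52592 regions and 11586 genes for testing.

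ChIP-seq, the sequencing of DNA pulled down with an antibody to the mark, was used to profile H3K27ac in the livers of NCoR1 KO and WT mice, all on a C57BL/6J background, made hypothyroid by diet or left euthyroid. NCoR1 is a nuclear receptor corepressor that brings histone deacetylase to genes bound by, among others, the thyroid hormone receptor. The 4 groups of 3 libraries were NCoR1 KO mice on PTU/LID, NCoR1 KO mice on chow, WT mice on PTU/LID and WT mice on chow. PTU/LID is a low iodine diet with 0.15% propylthiouracil, a drug that blocks thyroid hormone synthesis, given for 3 weeks. Mice of all 4 groups, chow included, were 6 weeks old at the start, with tissue taken on day 21. Which part of NCoR1 was deleted, in which cells and by what means is not given in the labels, and the deletion was not checked here. Each library carries a number, and since nothing states that these are different animals, p-values here speak of library-to-library spread only. The 4 input libraries were not analysed here.

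Cholesterol is built from acetyl-CoA through mevalonate, squalene and lanosterol. HMG-CoA synthase (Hmgcs1) acts at the start of the mevalonate steps. Squalene synthase (Fdft1) joins farnesyl units, squalene epoxidase (Sqle) oxidises squalene, and lanosterol synthase (Lss) closes the sterol rings. Lanosterol 14α-demethylase (Cyp51) and sterol C5-desaturase (Sc5d) act in the later sterol steps. When sterol in the endoplasmic reticulum is low, Scap carries the transcription factor SREBP2 to the Golgi, where it is released by cleavage, and SREBP2 then induces most genes of the pathway through sterol regulatory elements, together with the factor NF-Y. Thyroid hormone is known to raise hepatic cholesterol synthesis and LDL uptake in rodents, and H3K27ac marks active promoters and enhancers.

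The promoters of the members are shown because the sterol regulatory element and the NF-Y box are the sequences through which this pathway is known to be switched on. RefSeq promoter entries on GRCm38.p6 (the assembly of mm10) matched 4 of the 6 genes. The 250 bases before each annotated start are printed 5′ to 3′ on the strand of the gene, with capitals for matches on either strand to TCACNCCAC (sterol regulatory element), CCAAT (NF-Y box, ATTGG on the other strand) and AGGTCA (nuclear receptor motif, TGACCT on the other strand).
Hmgcs1, chr13:119690101-119690350, plus strand: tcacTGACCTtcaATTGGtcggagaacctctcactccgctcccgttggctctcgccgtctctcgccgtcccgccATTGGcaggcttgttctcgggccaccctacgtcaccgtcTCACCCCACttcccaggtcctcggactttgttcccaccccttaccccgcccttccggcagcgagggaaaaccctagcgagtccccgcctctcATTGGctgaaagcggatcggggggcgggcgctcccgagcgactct
Lss, chr10:76531355-76531604, plus strand: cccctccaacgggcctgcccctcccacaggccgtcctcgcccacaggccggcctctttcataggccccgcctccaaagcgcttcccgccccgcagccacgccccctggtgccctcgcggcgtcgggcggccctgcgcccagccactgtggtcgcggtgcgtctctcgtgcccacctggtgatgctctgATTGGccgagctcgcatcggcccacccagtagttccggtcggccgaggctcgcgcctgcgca
Cyp51, chr5:4104698-4104947, minus strand: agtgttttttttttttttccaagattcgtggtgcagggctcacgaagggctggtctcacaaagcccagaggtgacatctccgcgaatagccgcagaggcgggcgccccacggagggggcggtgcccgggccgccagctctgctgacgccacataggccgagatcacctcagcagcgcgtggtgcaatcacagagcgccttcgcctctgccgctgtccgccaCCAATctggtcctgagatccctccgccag
Sc5d, chr9:42264301-42264550, minus strand: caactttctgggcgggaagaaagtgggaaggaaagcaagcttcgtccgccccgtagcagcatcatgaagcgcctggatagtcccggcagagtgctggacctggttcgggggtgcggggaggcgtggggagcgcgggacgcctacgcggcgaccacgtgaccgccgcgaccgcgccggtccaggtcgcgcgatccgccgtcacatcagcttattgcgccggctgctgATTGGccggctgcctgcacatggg

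The Hmgcs1 sequence held the only match to TCACNCCAC among the 4, at 137 to 129 bases before the start. Of 32851 RefSeq mouse promoters of the same length, 1.05% hold a match. Sterol regulatory elements of other letters were not searched for, so a sequence without this match may still hold one. Hmgcs1 also held 3 NF-Y boxes and the only match to the nuclear receptor motif, which 14.0% of all promoters hold. The NF-Y box was in 4 of the 4, against 33.9% of all promoters, and the GC box (GGGCGG) was in 4 of the 4, against 32.7% of all. The E box (CACGTG) was in 1 of the 4, that of Sc5d, and in 6.02% of all. The direct repeat 4 of the thyroid hormone receptor type was in 0 of the 4 and in 0.015% of all, and these letters not being in the windows says nothing of the factor. Both strands were searched for every motif; AGGTCA is part of the direct repeat, and no other motif holds another.

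These upstream sequences were covered unequally by acetylated regions. For Cyp51, 250 of the 250 bases lay in a region, and for Sc5d 208 bases (83.2%) did. For Hmgcs1 and Lss 0 bases did: the upstream sequence of Hmgcs1 fell in a gap between a region that ended 59 bases before it and a region that began 18 bases after it, and that of Lss in a gap with 192 bases on the left and 49 on the right. The RefSeq promoter entry of Lss ends inside the span that the gene table gives for the gene.

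The libraries held between 2965505 and 7416187 counts in regions, with a mean of 6210254 in KO and 4105849 in WT. Values below are CPM, counts scaled to the TMM-adjusted total in regions of each library, so a change of the mark everywhere could not be seen. In bulk tissue, fewer cells of a type and less signal per cell cannot be told apart. Mitochondrial regions (chrM) took 2.27% to 17.2% of the counts in 7 libraries, called the higher chrM set, and 0.717% to 1.08% in 5, the lower set. With libraries named as in the labels, the lower set held Ptulid_NCoRKO_27ac_232 and Ptulid_NCoRKO_27ac_239, Ptulid_WT_27ac_155 and Ptulid_WT_27ac_280 and Chow_WT_27ac_106. It held no KO chow library, so KO on chow can be compared only across or within the higher set. In the higher set, KO PTU/LID had only Ptulid_NCoRKO_27ac_211 and WT PTU/LID only Ptulid_WT_27ac_135. In the lower set, WT chow had only Chow_WT_27ac_106. The spread of such a lone library is taken from other groups, so an adjusted p for it within a set does not come from replicates. Of the 10 hepatocyte markers 9 had a region, with a summed level of 4103 to 4424 CPM in KO PTU/LID, 3426 to 3753 in KO chow, 2872 to 4450 in WT PTU/LID and 3003 to 4085 in WT chow.

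Across all 12 libraries, the regions of the 6 genes averaged 29.4 CPM per kb of region in Cyp51, 28.6 in Sc5d, 23.9 in Hmgcs1, 23.0 in Fdft1, 18.8 in Lss and 14.0 in Sqle. The order was not the same in each group: Sc5d had 32.2 and 36.9 CPM per kb in KO on PTU/LID and on chow, the highest mean of the 6 genes, but 19.0 and 26.3 in WT on PTU/LID and on chow, below Cyp51 at 28.4 and 31.7. The 49 regions were 203 to 4152 bp long, held 3 to 1109 counts per library and averaged 2.52 to 112.8 CPM. They comprised 35 inside a member and 14 between genes, of which 3, all assigned to Sc5d, lay inside the non-coding gene Gm36435. The region count was 17 for Fdft1, 17 for Sc5d, 6 for Hmgcs1, 4 for Sqle, 3 for Lss and 2 for Cyp51, so the counts below are mostly those of Fdft1 and Sc5d.

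Acetylation of Sc5d and Sqle was higher in KO than in WT livers on PTU/LID, by 0.76 ± 0.11 and 0.85 ± 0.18 on the log2 scale (SE, n = 3 libraries a group). Sc5d was also higher in KO than in WT on chow (0.49 ± 0.11), and lower on PTU/LID than on chow in WT (-0.47 ± 0.11). Hmgcs1, Fdft1, Lss and Cyp51 passed the test in no comparison at gene level, while Fdft1 had 3 single regions that did. Genes and regions were tested with edgeR's quasi-likelihood test, with Benjamini-Hochberg adjustment over every gene or region tested, and called at an adjusted p below 0.05. At gene level, 2 of 6 members were called between KO and WT on PTU/LID, both higher, where 5.06% of all genes were called and 3.4% called higher. On chow 1 of 6 was called, higher in KO than in WT, where 3.56% of all genes were called and 2.2% called higher. Between PTU/LID and chow in KO livers 0 of 6 were called, with 1 at an unadjusted p below 0.05 and 0 by DESeq2, where 7% of all genes were called. In WT livers 1 of 6 was called by diet, lower on PTU/LID, where 7.17% of all were called and 3.16% called lower. For the interaction, the difference of the diet response between the genotypes, 0 of 6 were called, with 2 at an unadjusted p below 0.05 and 0 by DESeq2, against 0.268% of all genes. Groups were apart without overlap in 2 of 6 genes for KO against WT on PTU/LID, where 21% of all genes were, and in 2 of 6 on chow, where 28% were. By diet they were apart in 0 of 6 in KO, where 25% of all genes were, and in 4 of 6 in WT, where 25.3% were.

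**Figure D1:**
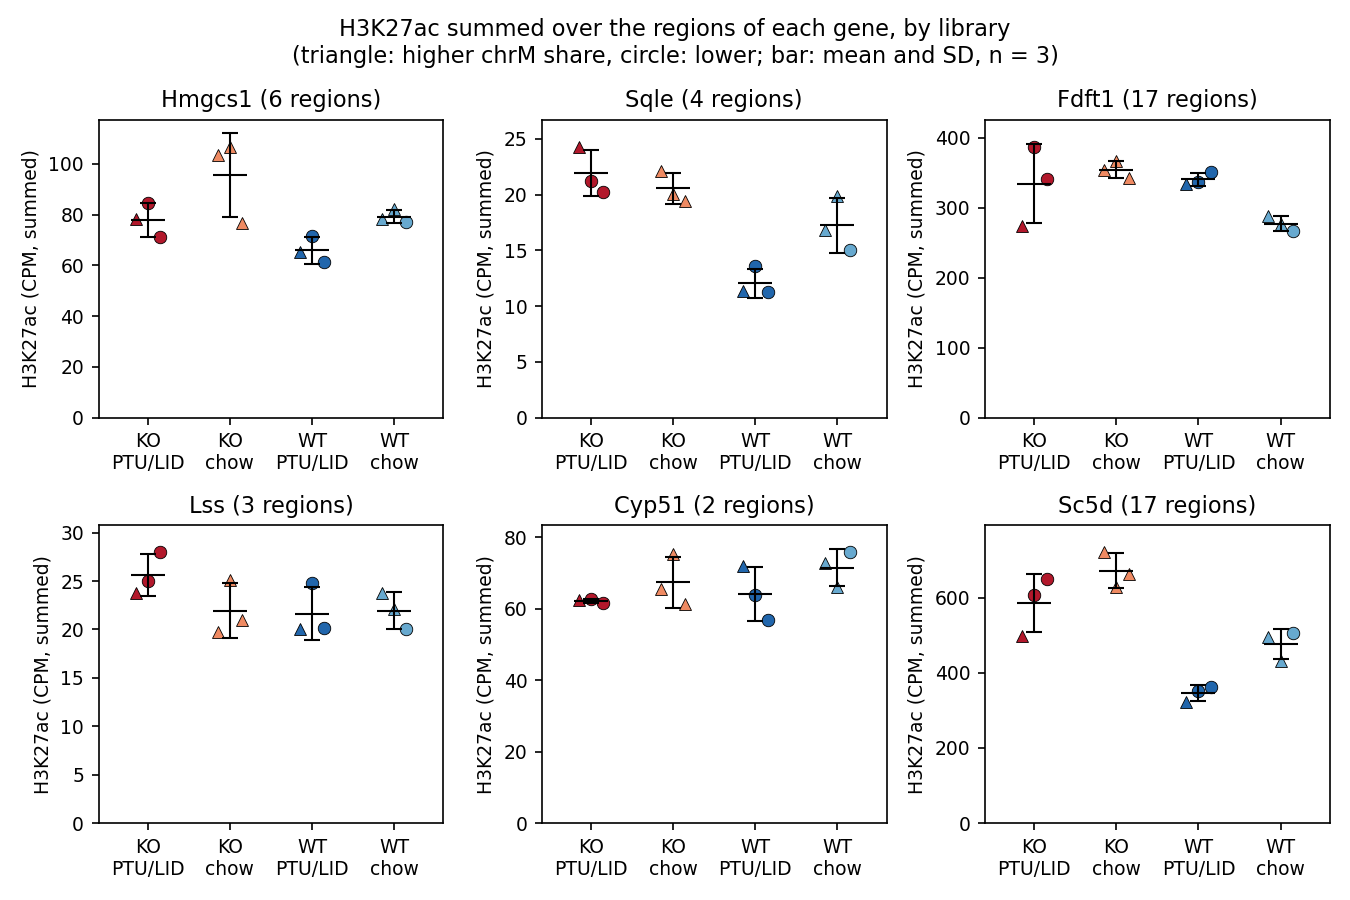
H3K27ac of each gene in CPM, summed over its regions (y axis, from 0), in the 12 libraries by group (x axis); triangles are libraries of higher chrM share, circles of lower, and bars give the mean and SD (n = 3). In the Sc5d panel every KO library lies above every WT PTU/LID library, and in the Sqle panel the WT PTU/LID libraries, at 11.3 to 13.6 CPM, are the lowest 3.

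**Figure D2:**
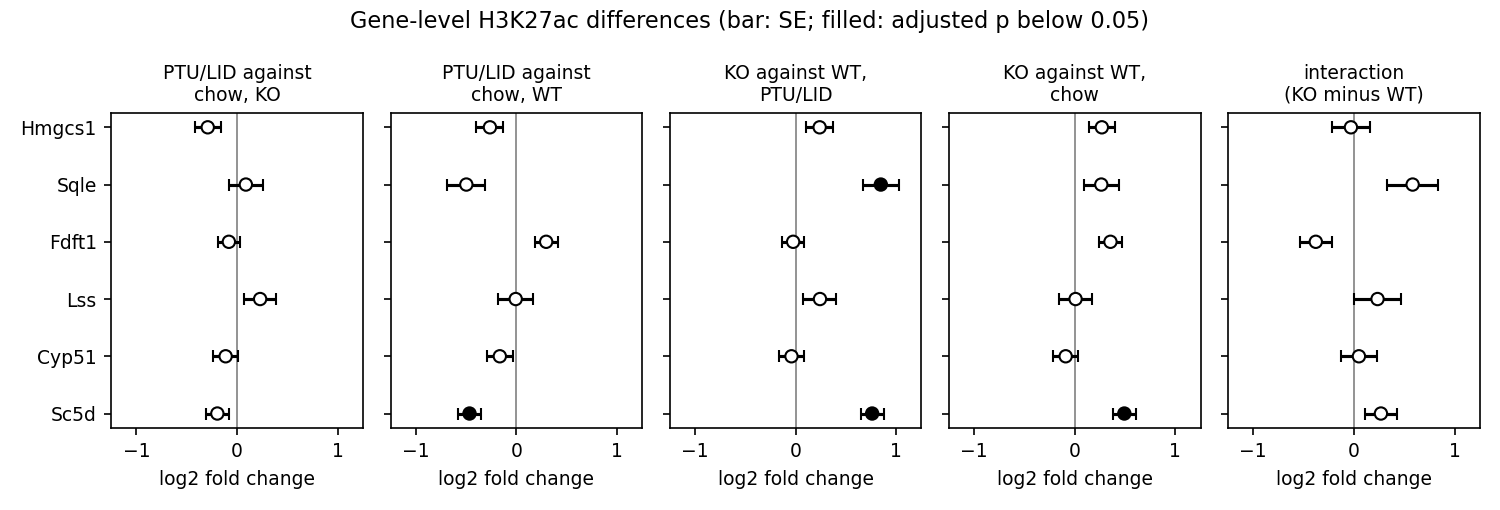
Gene-level log2 fold changes (x axis) with their SE for the 6 genes (y axis) in the 4 comparisons and the interaction; filled points have an adjusted p below 0.05. Sc5d is filled in 3 panels and Sqle in 1, and no gene is filled for PTU/LID against chow in KO or for the interaction.

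Hmgcs1 (chr13:119690351-119708260, plus strand) had 78.2, 84.4 and 71.1 CPM in KO PTU/LID, 103.4, 106.8 and 76.5 in KO chow, 65.1, 71.7 and 61.2 in WT PTU/LID, and 78.2, 82.3 and 77.2 in WT chow. The highest 2 libraries were both KO chow and the lowest 2 both WT PTU/LID, but KO and WT overlapped on each diet. The log2 fold changes were -0.29 ± 0.13 (SE, adjusted p = 0.2) for PTU/LID against chow in KO, -0.26 ± 0.13 (adjusted p = 0.245) in WT, 0.24 ± 0.13 (adjusted p = 0.336) for KO against WT on PTU/LID and 0.27 ± 0.13 (adjusted p = 0.261) on chow, by edgeR. In WT every PTU/LID library lay below every chow library.

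None of the 6 regions of Hmgcs1 was called. The regions on either side of its start, with midpoints each 0.526 kb from it, flank the printed sequence with the sterol regulatory element. The one before the start (chr13:119689609-119690042) had 10.99 ± 3.32 CPM in KO PTU/LID, 15.8 ± 1.27 in KO chow, 7.14 ± 2.169 in WT PTU/LID and 12.8 ± 1.15 in WT chow (SD, n = 3). The one after it (chr13:119690368-119691386), the highest region of the gene, had 32.5 ± 3.51, 40.1 ± 9.74, 24.9 ± 3.77 and 32.9 ± 1.78 CPM in these groups in the same order. Their log2 fold changes by diet in WT were -0.80 ± 0.26 (SE, edgeR adjusted p = 0.0774) and -0.40 ± 0.19 (adjusted p = 0.258).

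Fdft1 (chr14:63145150-63181687) had 274.1, 386.9 and 341.2 CPM in KO PTU/LID, 354.0, 366.3 and 342.5 in KO chow, 333.7, 336.4 and 350.2 in WT PTU/LID, and 288.2, 276.7 and 266.5 in WT chow. WT chow was the lowest group, apart from Ptulid_NCoRKO_27ac_211, which lay within its range. The log2 fold changes were -0.08 ± 0.11 (SE, adjusted p = 0.751) by diet in KO, 0.30 ± 0.11 (adjusted p = 0.11) in WT, -0.02 ± 0.11 (adjusted p = 0.933) for KO against WT on PTU/LID and 0.35 ± 0.11 (adjusted p = 0.0757) on chow, by edgeR. The interaction was -0.38 ± 0.16 (adjusted p = 0.402), and -0.62 (adjusted p = 0.0495) within the higher chrM set. WT chow had the lowest mean of the 4 groups in 10 of its 17 regions and the highest in 0, a description with no share over all regions beside it.

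Of the 17 Fdft1 regions, 3 were called, all inside the gene. The first (chr14:63164397-63165018) had 20.5, 39.3 and 44.0 CPM in KO PTU/LID, 36.1, 38.1 and 35.1 in KO chow, 22.4, 38.8 and 48.2 in WT PTU/LID, and 16.5, 16.8 and 22.3 in WT chow. It was higher in WT on PTU/LID than on chow (log2 fold change 0.97 ± 0.25, SE, edgeR adjusted p = 0.0272) and higher in KO than in WT on chow (0.95 ± 0.25, adjusted p = 0.0375), 2 comparisons that share the WT chow libraries. Both low PTU/LID libraries, Ptulid_NCoRKO_27ac_211 and Ptulid_WT_27ac_135, were of the higher chrM set, while all 3 KO chow libraries were of that set and high. Within the higher chrM set the diet difference in WT was 0.44 (adjusted p = 0.638), within the lower set 0.99 (adjusted p = 0.00301), and KO against WT on chow within the higher set was 1.13 (adjusted p = 0.00029). The diet call in WT was lost without Ptulid_WT_27ac_155 or Ptulid_WT_27ac_280 or Chow_WT_27ac_96 or Chow_WT_27ac_99 (adjusted p up to 0.183 with 1 library left out), and the chow call without any of the 6 libraries compared (up to 0.152). Its interaction was -1.02 ± 0.34 (adjusted p = 0.28), and -1.37 (adjusted p = 0.00136) with a term for the chrM sets or -1.26 (adjusted p = 0.0335) without Ptulid_WT_27ac_135.

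The neighbouring Fdft1 region (chr14:63165093-63165974) was higher in KO than in WT on chow, with 20.3, 29.8 and 21.7 CPM in KO and 13.3, 13.8 and 14.7 in WT. The groups did not overlap, and the log2 fold change was 0.77 ± 0.21 (SE, edgeR adjusted p = 0.0437). This call was lost with 8 of the 12 libraries left out in turn, all 6 of those compared and Ptulid_NCoRKO_27ac_232 and Ptulid_NCoRKO_27ac_239 (adjusted p up to 0.197), and with upper-quartile scaling; within the higher chrM set the difference was 0.82 (adjusted p = 0.0346). The third (chr14:63170699-63171110) was higher on PTU/LID in KO, with 8.18, 9.93 and 11.2 CPM on PTU/LID against 2.90, 5.02 and 4.28 on chow, a log2 fold change of 1.27 ± 0.30 (adjusted p = 0.00498). In WT it had 7.79 ± 3.11 CPM on PTU/LID and 6.08 ± 1.44 on chow (0.40 ± 0.31, adjusted p = 0.522). The KO call was lost without Chow_NCoRKO_27ac_122 (adjusted p = 0.0552), with the chrM-set term (1.05, adjusted p = 0.0687) and within the higher chrM set (1.01, adjusted p = 0.22). The highest Fdft1 region (chr14:63166233-63169515) was called in no comparison, with 91.7 ± 17.3 CPM in KO PTU/LID, 104.0 ± 8.19 in KO chow, 98.2 ± 4.20 in WT PTU/LID and 77.0 ± 9.26 in WT chow.

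Sqle (chr15:59315092-59331193) had 24.3, 21.3 and 20.3 CPM in KO PTU/LID, 22.1, 20.1 and 19.4 in KO chow, 11.4, 13.6 and 11.3 in WT PTU/LID, and 16.8, 19.9 and 15.0 in WT chow. On PTU/LID every KO library lay above every WT library, and the 3 WT PTU/LID libraries were the lowest of the 12. KO exceeded WT on PTU/LID by 0.85 ± 0.18 on the log2 scale (SE, edgeR adjusted p = 0.00612). On chow the difference was 0.26 ± 0.17 (adjusted p = 0.428). By diet it was 0.09 ± 0.17 (adjusted p = 0.836) in KO and -0.50 ± 0.19 (adjusted p = 0.112) in WT, and the interaction was 0.58 ± 0.25 (adjusted p = 0.419), so the genotype difference on PTU/LID was not shown to exceed that on chow. The PTU/LID call held with any 1 library left out (adjusted p up to 0.0415) and was lost over regions at gene ends alone (adjusted p = 0.389). Within the lower chrM set it was 0.75 (adjusted p = 0.0309), and within the higher set, 1 library a group, 1.09 (adjusted p = 0.0967).

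Of the 4 Sqle regions, 1 was called. This region inside the gene (chr15:59319505-59319931) had 10.5, 9.24 and 9.47 CPM in KO PTU/LID against 2.69, 4.74 and 4.72 in WT PTU/LID, with 10.3, 7.63 and 5.35 in KO chow and 5.39, 8.01 and 5.29 in WT chow. KO and WT did not overlap on PTU/LID and overlapped on chow. It was higher in KO than in WT on PTU/LID by 1.22 ± 0.31 on the log2 scale (SE, edgeR adjusted p = 0.014), a call lost without Ptulid_WT_27ac_135 (adjusted p = 0.0626). Within the higher chrM set the difference was 1.95 (adjusted p = 0.125) and within the lower set 0.99 (adjusted p = 0.048).

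Lss (chr10:76531565-76557139, plus strand) had 23.8, 25.0 and 28.0 CPM in KO PTU/LID, 19.8, 25.1 and 20.9 in KO chow, 20.0, 24.8 and 20.1 in WT PTU/LID, and 23.8, 22.1 and 20.0 in WT chow. The groups overlapped in all 4 comparisons, and the log2 fold changes were 0.23, -0.01, 0.24 and 0.01 (SE 0.16 to 0.17, edgeR adjusted p from 0.443 to 0.987) for diet in KO, diet in WT, genotype on PTU/LID and genotype on chow. None of its 3 regions was called. Its highest region, just inside the start (chr10:76531653-76532289), had 16.5 ± 0.572 CPM in KO PTU/LID, 14.4 ± 2.43 in KO chow, 13.0 ± 3.13 in WT PTU/LID and 13.5 ± 0.454 in WT chow.

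Cyp51 (chr5:4080674-4104697, minus strand) also overlapped between the groups in all 4 comparisons. It had 62.4, 62.6 and 61.7 CPM in KO PTU/LID, 65.7, 75.4 and 61.3 in KO chow, 72.0, 63.8 and 56.9 in WT PTU/LID, and 72.9, 66.0 and 75.9 in WT chow. Its log2 fold changes were -0.11, -0.16, -0.04 and -0.09 for diet in KO, diet in WT, genotype on PTU/LID and genotype on chow (SE 0.12 to 0.13, edgeR adjusted p from 0.47 to 0.895). The region over its start and the whole printed promoter (chr5:4104041-4105308) had 42.7 ± 1.66 CPM in KO PTU/LID, 45.1 ± 3.51 in KO chow, 43.6 ± 3.92 in WT PTU/LID and 51.5 ± 7.64 in WT chow, and neither of its 2 regions was called.

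Sc5d (chr9:42251592-42264300, minus strand) was the gene whose acetylation differed in the most comparisons. It had 499.1, 607.5 and 648.8 CPM in KO PTU/LID, 721.0, 628.8 and 663.5 in KO chow, 321.8, 351.3 and 363.0 in WT PTU/LID, and 494.1, 430.5 and 505.9 in WT chow. KO lay above WT in every library on chow and on PTU/LID, and WT PTU/LID was the lowest group without overlap. KO exceeded WT on PTU/LID by 0.76 ± 0.11 on the log2 scale (SE, edgeR adjusted p = 0.000263) and on chow by 0.49 ± 0.11 (adjusted p = 0.0166). The diet difference in WT, lower on PTU/LID, was -0.47 ± 0.11 (adjusted p = 0.0149), and in KO it was -0.20 ± 0.11 (adjusted p = 0.346). The interaction of 0.27 ± 0.16 (adjusted p = 0.567) did not show that the diet difference varied with genotype, and the WT diet difference shares its libraries with both genotype differences.

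The PTU/LID genotype call of Sc5d held in every alternative run (log2 fold change 0.58 to 0.86), and was 0.63 (adjusted p = 0.00826) within the higher and 0.82 (adjusted p = 3.13e-06) within the lower chrM set. The chow genotype difference was 0.54 (adjusted p = 7.56e-05) within the higher set, and the call was lost without Chow_NCoRKO_27ac_122 or Chow_NCoRKO_27ac_190 or Chow_WT_27ac_99 (adjusted p up to 0.114). The diet difference in WT was -0.51 in the higher and -0.47 in the lower set, each with 1 library in a group. Its call was lost over regions at gene ends alone (edgeR adjusted p = 0.0975). It was also lost without Ptulid_WT_27ac_155 or Chow_WT_27ac_96 or Chow_WT_27ac_106 (adjusted p up to 0.0594).

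The signal of Sc5d lay mostly before its start. The 8 regions upstream, 10701 bp in all, summed to 422.6 ± 72.2 CPM in KO PTU/LID, 490.2 ± 25.3 in KO chow, 211.8 ± 14.6 in WT PTU/LID and 329.7 ± 41.4 in WT chow (SD, n = 3). This was 72.2%, 73.0%, 61.3% and 69.1% of the gene's total in these groups in the same order. The 7 regions inside the gene summed to 126.9 ± 6.78, 159.3 ± 26.0, 103.5 ± 11.8 and 128.3 ± 14.6 CPM. A further 2 regions beyond the other end, 33.3 and 34.1 kb from the gene, had higher summed means on PTU/LID. They had 35.7 ± 1.12 CPM in KO PTU/LID and 21.6 ± 5.15 in KO chow, and 30.0 ± 7.21 in WT PTU/LID and 18.9 ± 1.61 in WT chow. By diet only the one at 34.1 kb was called, and only in KO. The one at 33.3 kb had a log2 fold change of 0.76 ± 0.25 in KO (SE, edgeR adjusted p = 0.0559) and 0.78 ± 0.26 in WT (adjusted p = 0.0832). The nearest protein-coding neighbours of Sc5d are Tecta, 65.3 kb away on the upstream side, and Sorl1, 127.3 kb away on the other, so assignment to Sc5d is by distance alone.

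**Figure D3:**
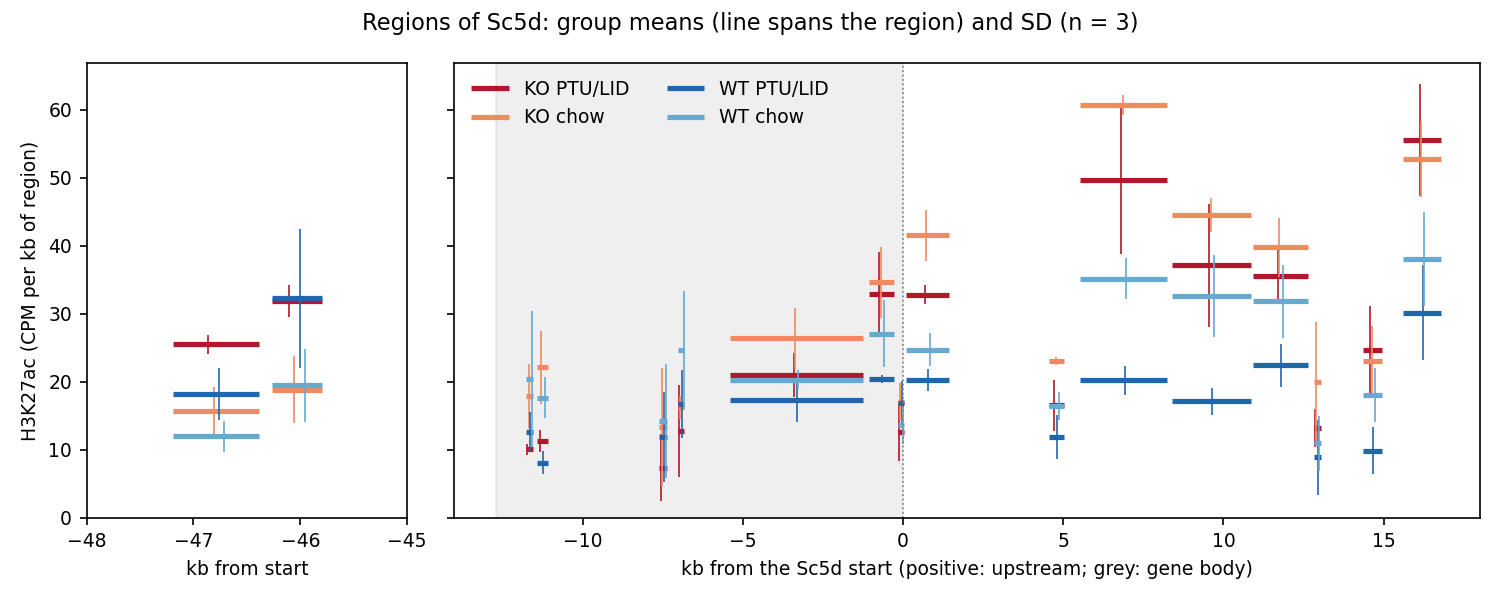
H3K27ac per kb of region (y axis, CPM per kb) at the 17 regions of Sc5d by distance from its start (x axis, kb, upstream positive, gene body in grey, far regions in the left panel); each line spans a region at its group mean, and thin bars give the SD (n = 3). From 5 to 17 kb upstream, WT PTU/LID is the lowest group at each region, and in the left panel both PTU/LID groups lie above both chow groups.

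The 2 genotype differences with the lowest adjusted p were 6.89 and 9.63 kb upstream of the Sc5d start. The region 6.89 kb upstream (chr9:42269833-42272554), the highest of the 49, had 101.8, 145.99 and 158.3 CPM in KO PTU/LID, 164.6, 161.7 and 169.4 in KO chow, 48.4, 57.3 and 59.3 in WT PTU/LID, and 92.5, 89.7 and 105.1 in WT chow. On PTU/LID each KO library was above every WT library, and on chow likewise. KO exceeded WT by 1.30 ± 0.17 on PTU/LID (log2, SE, edgeR adjusted p = 4.56e-06) and by 0.78 ± 0.16 on chow (adjusted p = 0.00558). The diet difference was -0.80 ± 0.17 in WT (adjusted p = 0.00404), -0.28 ± 0.16 in KO (adjusted p = 0.357), and the interaction 0.52 ± 0.23 (adjusted p = 0.489). The chow call was lost without Chow_WT_27ac_99 (adjusted p = 0.0519), while the PTU/LID and WT diet calls held in every alternative run. In the higher and the lower chrM set the PTU/LID genotype difference was 1.07 and 1.39, and the WT diet difference -0.90 and -0.82. These splits leave 1 or 2 libraries in a group.

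The region 9.63 kb upstream (chr9:42272691-42275161) had 70.1, 90.2 and 114.9 CPM in KO PTU/LID, 111.8, 103.4 and 115.5 in KO chow, 37.4, 42.2 and 47.4 in WT PTU/LID, and 84.3, 64.3 and 93.2 in WT chow. Every WT PTU/LID library lay below all other libraries. KO exceeded WT on PTU/LID by 1.12 ± 0.18 (log2, SE, edgeR adjusted p = 0.000126), and the diet difference in WT, lower on PTU/LID, was -0.93 ± 0.18 (adjusted p = 0.00157). Both calls held in every alternative run. In the higher and the lower chrM set, with 1 or 2 libraries in a group, the PTU/LID genotype difference was 0.90 and 1.20. The WT diet difference was -0.97 and -1.03. The genotype difference on chow was 0.45 ± 0.17 (adjusted p = 0.159), the diet difference in KO -0.26 ± 0.17 (adjusted p = 0.448), and the interaction 0.67 ± 0.25 (adjusted p = 0.341).

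Near the start, the region 0.754 kb upstream (chr9:42264384-42265725) had 41.9, 45.1 and 45.2 CPM in KO PTU/LID, 61.3, 51.5 and 54.4 in KO chow, 26.6, 29.7 and 25.5 in WT PTU/LID, and 29.5, 34.5 and 35.5 in WT chow. KO and WT were apart on both diets, by 0.69 ± 0.17 on PTU/LID (log2, SE, edgeR adjusted p = 0.0108) and 0.74 ± 0.17 on chow (adjusted p = 0.00947). The PTU/LID call was lost without Ptulid_NCoRKO_27ac_232 or Ptulid_NCoRKO_27ac_239 or Ptulid_WT_27ac_280 (adjusted p up to 0.0734), and the chow call without Chow_NCoRKO_27ac_122 or Chow_WT_27ac_96 (adjusted p up to 0.0636). Within the higher chrM set the PTU/LID difference was 0.65 (adjusted p = 0.35) and within the lower 0.72 (adjusted p = 0.00411), and the chow difference within the higher set was 0.80 (adjusted p = 0.00257). The short region over the start itself (chr9:42264135-42264341) was called in no comparison, with 1.93 to 4.11 CPM over all 12 libraries.

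A further 4 Sc5d regions were higher in KO than in WT on PTU/LID, by edgeR. The region 16.2 kb upstream (chr9:42279913-42281088) had 54.2, 72.0 and 69.8 CPM in KO and 43.0, 26.7 and 36.7 in WT (0.89 ± 0.18, log2, SE, adjusted p = 0.00221); the difference was 0.33 (adjusted p = 0.703) within the higher chrM set and 1.16 (adjusted p = 4.53e-08) within the lower. The region 14.6 kb upstream (chr9:42278649-42279244) had 13.0, 12.0 and 19.1 CPM in KO and 3.88, 5.82 and 8.01 in WT (1.29 ± 0.27, adjusted p = 0.00331), a call lost without Ptulid_NCoRKO_27ac_239 (adjusted p = 0.0641). The region 11.8 kb upstream (chr9:42275219-42276926) had 60.8 ± 6.64 CPM in KO and 38.3 ± 5.48 in WT (0.67 ± 0.17, adjusted p = 0.0178), lost without Ptulid_NCoRKO_27ac_232 or Ptulid_NCoRKO_27ac_239 or Ptulid_WT_27ac_155 (adjusted p up to 0.107) or with 2 groups fitted. Within the higher and the lower chrM set the difference was 1.74 (adjusted p = 0.104) and 1.17 (adjusted p = 0.00304) at 14.6 kb, and 0.55 (adjusted p = 0.414) and 0.71 (adjusted p = 0.000851) at 11.8 kb. The last, just inside the start (chr9:42263227-42264024), had 26.2 ± 4.95 CPM in KO and 16.3 ± 0.477 in WT (0.68 ± 0.20, adjusted p = 0.0491). It was lost in 6 of the other settings and with 10 of the 12 libraries left out in turn, all but Chow_NCoRKO_27ac_146 and Chow_WT_27ac_96 (adjusted p up to 0.161), and was 0.95 (adjusted p = 0.215) in the higher and 0.54 (adjusted p = 0.142) in the lower chrM set. The regions at 14.6 and 11.8 kb lie inside Gm36435. In each of these 4 regions KO and WT did not overlap on PTU/LID.

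By diet in KO livers 2 Sc5d regions were called, in opposite directions. The region 34.1 kb beyond the other end (chr9:42217113-42217915) had 21.7, 19.6 and 20.1 CPM on PTU/LID against 9.98, 15.6 and 12.2 on chow (0.70 ± 0.22, log2, SE, edgeR adjusted p = 0.0459). In WT it had 14.6 ± 3.11 and 9.62 ± 1.84 CPM on PTU/LID and on chow (0.59 ± 0.24, adjusted p = 0.168). The region near the end of the gene (chr9:42252863-42253211) had 3.32, 4.14 and 4.37 CPM on PTU/LID against 9.80, 7.26 and 6.11 on chow in KO (-0.94 ± 0.29, adjusted p = 0.046), and 2.84 ± 0.603 against 6.18 ± 1.06 in WT (-1.14 ± 0.34, adjusted p = 0.0519). PTU/LID and chow did not overlap in KO in either region. Both KO calls were lost by DESeq2, with the chrM-set term and within the higher chrM set. With 1 library left out, the far region lost its call without any KO PTU/LID library, Chow_NCoRKO_27ac_122 or Chow_NCoRKO_27ac_190, Ptulid_WT_27ac_155 or Chow_WT_27ac_99, with adjusted p up to 0.239. The region near the end lost its call without any KO PTU/LID library, Chow_NCoRKO_27ac_122 or Chow_NCoRKO_27ac_146 or Chow_WT_27ac_99, with adjusted p up to 0.253.

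**Figure D4:**
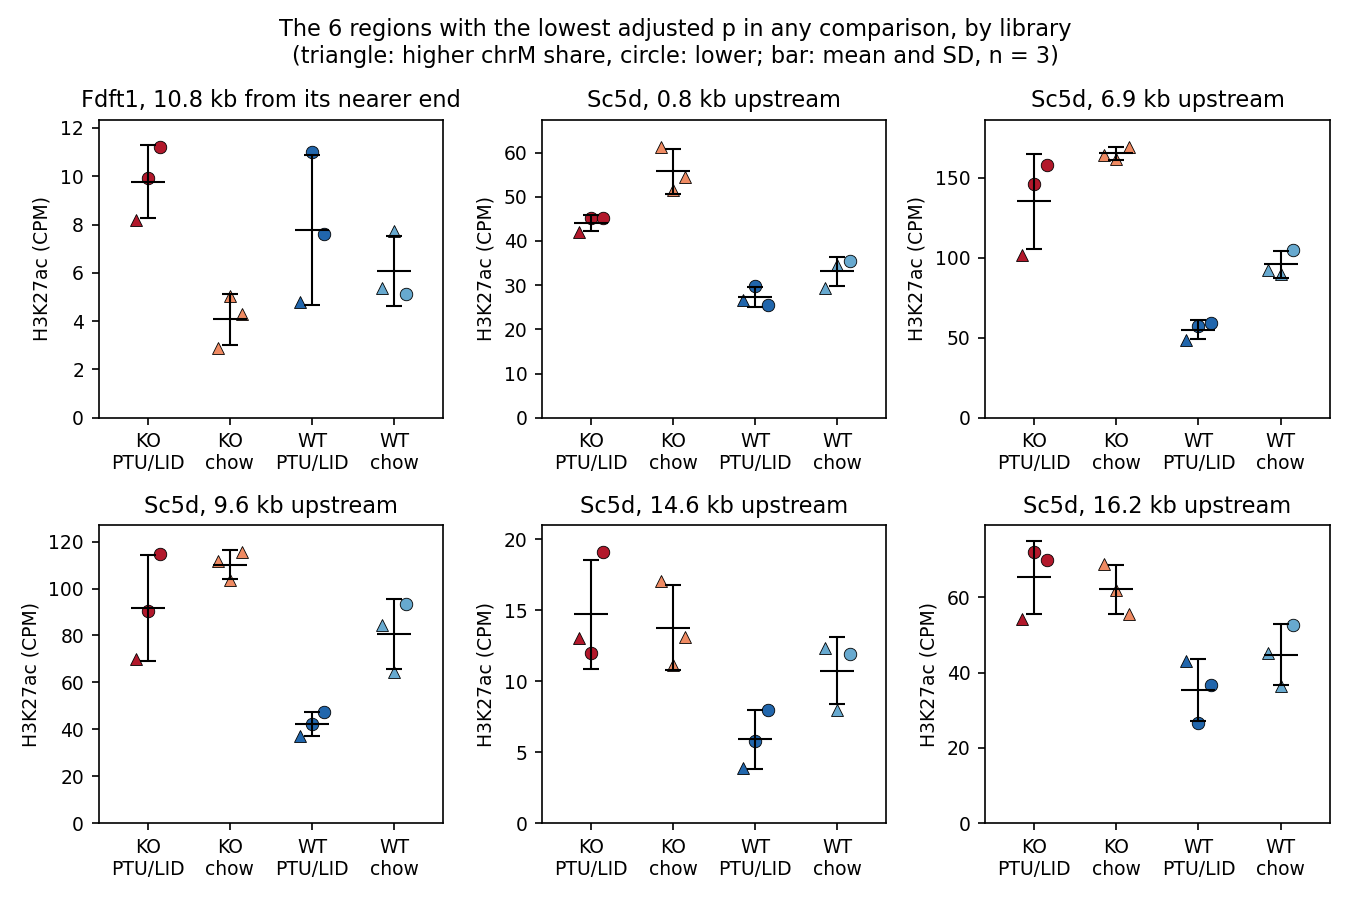
H3K27ac in CPM (y axis, from 0) by library and group (x axis) for the 6 regions with the lowest adjusted p in any comparison; triangles are libraries of higher chrM share, circles of lower, and bars give the mean and SD (n = 3). At 6.9 and 9.6 kb upstream of Sc5d the 3 WT PTU/LID libraries are the lowest, and in the Fdft1 panel the 3 KO chow libraries lie below the 3 KO PTU/LID ones.

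Among the 49 regions, every genotype call was to higher acetylation in KO, on PTU/LID mostly at Sc5d. On PTU/LID 8 regions were called between KO and WT, all 8 higher, of which 7 were of Sc5d and 1 of Sqle; over all regions 3.87% were called, 3.17% higher and 0.7% lower. On PTU/LID 13 regions were higher in KO without overlap and 0 lower, where 10.5% and 8.66% of all regions were. On chow 4 were called, all 4 higher, 2 of Sc5d and 2 of Fdft1, where 2.43% of all regions were called, 1.6% higher and 0.825% lower. On chow 14 were higher without overlap and 1 lower, where 11.9% and 11.6% of all regions were. The median log2 fold change of the 49 was 0.13 on PTU/LID and 0.30 on chow, beside -0.01 over all regions in each. On PTU/LID 28 of the 49 were above 0 and on chow 41, beside 48.3% and 49.4% of all regions. By gene on PTU/LID, those above 0 were 12 of 17 for Sc5d, 6 of 17 for Fdft1 and 5 of 6 for Hmgcs1. They were 3 of 4 for Sqle, 2 of 3 for Lss and 0 of 2 for Cyp51. The 49 are not independent of one another, since regions of 1 gene lie side by side.

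By diet, 3 of 49 regions were called in KO, 2 higher and 1 lower, where 6.21% of all regions were called, 3.28% higher and 2.94% lower. In WT 3 were called, 1 higher and 2 lower, where 3.71% of all were, 1.82% higher and 1.9% lower. The shares of members called in KO and in WT were each 6.12%, close to the share of all regions in KO. PTU/LID lay above chow without overlap in 3 and below in 7 regions in KO, where 11.7% and 11.6% of all regions were. In WT it lay above in 5 and below in 10, where 9.38% and 12.1% of all regions were. The median log2 fold change was -0.13 in KO and -0.16 in WT, beside -0.01 and -0.03 over all regions. For the interaction 0 regions were called by edgeR, with 8 at an unadjusted p below 0.05 and 0 called by DESeq2, where 0.23% of all were called. The largest interactions were 1.07 and -1.02 on the log2 scale.

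**Figure D5:**
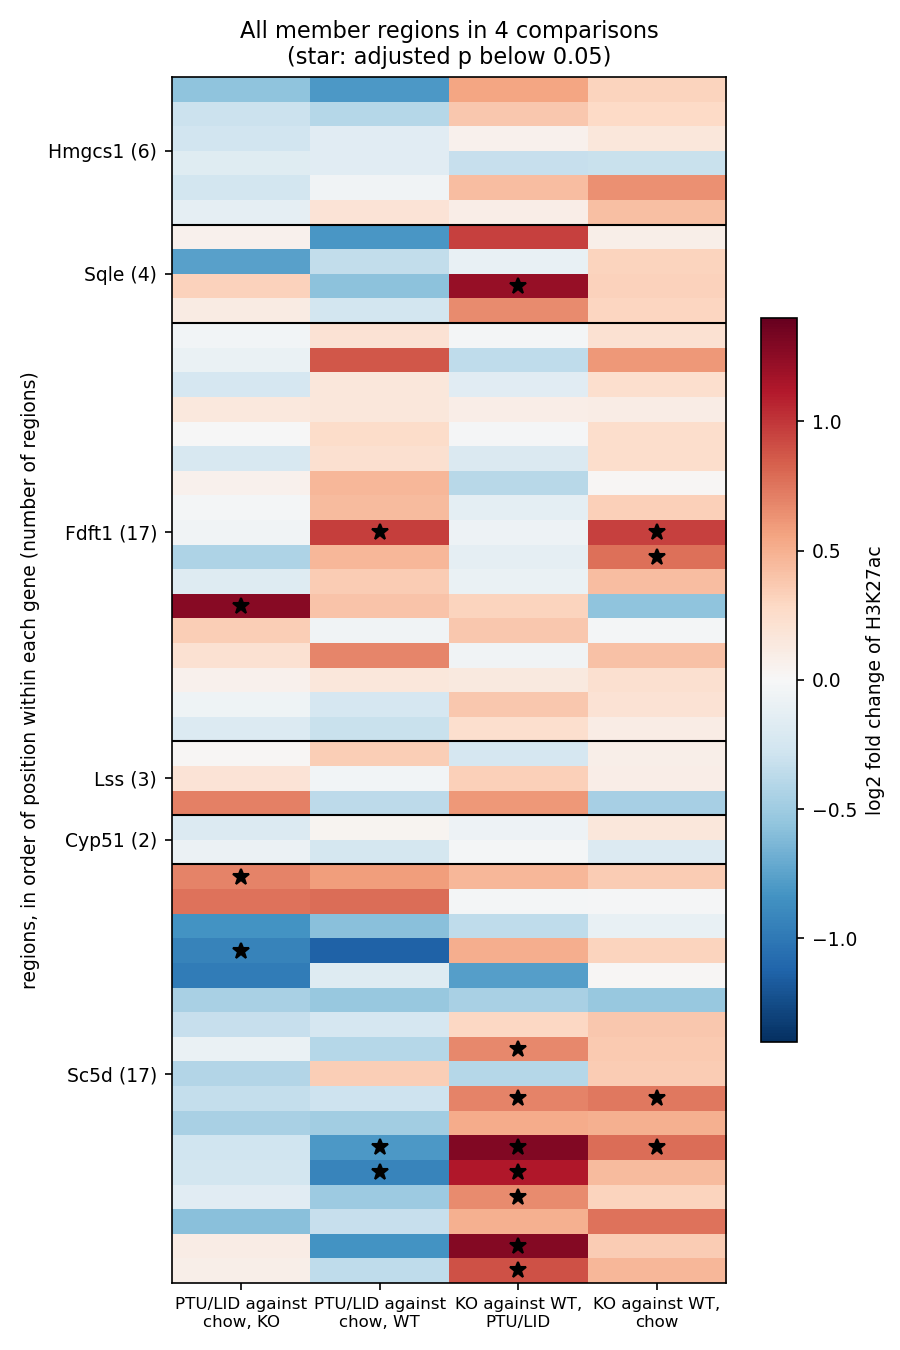
Log2 fold change of H3K27ac (colour) for the 49 regions (y axis, by gene and by position along the chromosome, so that upstream of Sc5d is at the bottom) in the 4 comparisons (x axis); stars mark an adjusted p below 0.05. Of the 8 stars for KO against WT on PTU/LID, 7 are in Sc5d and 1 in Sqle.

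Levels by group placed WT PTU/LID lowest in 11 of the 17 Sc5d regions, 3 of the 4 Sqle regions and 3 of the 6 Hmgcs1 regions, but in 3 of the 17 Fdft1 regions. KO chow had the highest mean in 10 of 17 Sc5d and 5 of 6 Hmgcs1 regions. Over the 49, KO chow was highest in 23 and WT PTU/LID lowest in 21.

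The other genes of the mevalonate and sterol steps were read from a list of 15, of which 14 had a region (Mvk had none). Between KO and WT on PTU/LID 2 of the 14 were called, both higher, where 5.06% of all genes were called and 3.4% called higher; they encode 2 successive enzymes of the mevalonate branch. Pmvk, phosphomevalonate kinase, had 50.2 ± 11.1 CPM in KO and 31.5 ± 2.21 in WT (SD, n = 3), a log2 fold change of 0.67 ± 0.17 (SE, edgeR adjusted p = 0.026). Mvd, mevalonate diphosphate decarboxylase, had 21.1 ± 3.97 CPM in KO and 12.4 ± 0.746 in WT (0.74 ± 0.20, adjusted p = 0.0325). Both calls were lost within the higher chrM set (0.78, adjusted p = 0.0981, and 1.13, adjusted p = 0.108) and with 2 groups fitted, Mvd also within the lower set (0.57, adjusted p = 0.104), Pmvk without Ptulid_NCoRKO_27ac_211 or Ptulid_NCoRKO_27ac_239 or Ptulid_WT_27ac_155 or Ptulid_WT_27ac_280 (adjusted p up to 0.153), and Mvd without Ptulid_NCoRKO_27ac_211 or Ptulid_NCoRKO_27ac_232 or any WT PTU/LID library (up to 0.0875). In the other 3 comparisons and the interaction 0 of the 14 were called by edgeR, with 1 by diet in KO, 4 by diet in WT, 3 for KO against WT on chow and 1 for the interaction at an unadjusted p below 0.05; DESeq2 called 1 by diet in WT and 0 in the others. Of all genes, edgeR called 7% by diet in KO, 7.17% by diet in WT, 3.56% for KO against WT on chow and 0.268% for the interaction. The median over the 14 was 0.21 for KO against WT on PTU/LID and 0.02 on chow, beside -0.07 and -0.0007 over all genes.

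Of 17 genes of SREBP2 control and cholesterol uptake, 16 had a region (Npc1l1 had none). Scap, the sterol-sensing escort of SREBP2, was lower on PTU/LID than on chow in both genotypes, with 271.8 ± 13.9 against 396.9 ± 51.7 CPM in KO (-0.55 ± 0.12, log2, SE, edgeR adjusted p = 0.00465) and 206.7 ± 22.0 against 327.0 ± 34.8 in WT (-0.66 ± 0.12, adjusted p = 0.0016). The KO call was lost without Chow_NCoRKO_27ac_122 (adjusted p = 0.0561), and the WT call over regions at gene ends alone. KO against WT on PTU/LID was 0.40 (adjusted p = 0.0545) for Scap. Mylip, which encodes a ligase that targets the LDL receptor for degradation, was lower on PTU/LID than on chow in WT, with 52.2 ± 8.84 on PTU/LID against 75.2 ± 6.2 CPM on chow (-0.54 ± 0.14, adjusted p = 0.0214), and it was lower in KO than in WT on chow, with 53.4 ± 2.93 against 75.2 ± 6.2 (-0.50 ± 0.14, adjusted p = 0.042). Both of these Mylip comparisons share the WT chow libraries. The first call was lost without Ptulid_WT_27ac_155 or Ptulid_WT_27ac_280 or Chow_WT_27ac_96 or Chow_WT_27ac_106 (adjusted p up to 0.138) and the second without any of the 6 libraries compared (up to 0.158). The diet call was also lost with only the 2 groups compared in the fit (adjusted p = 0.0573), and the chow call with RLE scaling (0.0502), over regions at gene ends alone (0.14) and with regions assigned only within 10 kb (0.119). In the higher chrM set the WT diet difference of Mylip was -0.24 (adjusted p = 0.641). No other member of the list was called in any comparison, and between KO and WT on PTU/LID 0 of the 16 were by edgeR, with 5 at an unadjusted p below 0.05, where 5.06% of all genes were called. DESeq2 also called Scap there and Npc1 between KO and WT on chow, both higher in KO.

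Of 41 markers of 5 other liver cell types, 20 had a region and were tested. Between KO and WT on PTU/LID 0 of the 20 were called by edgeR, with 5 at an unadjusted p below 0.05 and 0 by DESeq2, and for the interaction likewise 0, 5 and 0. By diet 2 were called in KO, both lower on PTU/LID (Cd4 and Tek), and 4 in WT, Spi1, Pecam1 and Cd4 lower on PTU/LID and Sox9 higher. On chow 4 of the 20 were lower in KO than in WT (Spi1, Pecam1, Ehd3 and Ptprc). The calls of Spi1 and Pecam1 by diet in WT and by genotype on chow share the WT chow libraries. Of all genes, edgeR called 7% by diet in KO, 7.17% by diet in WT and 3.56% for KO against WT on chow. For KO against WT on PTU/LID it called 5.06% of all genes, and for the interaction 0.268%.

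The 9 endothelial markers with a region summed to 623 to 670 CPM in KO PTU/LID, 660 to 686 in KO chow, 715 to 806 in WT PTU/LID and 814 to 889 in WT chow, so both WT groups lay above both KO groups. Of the 10 Kupffer cell and macrophage markers 4 had a region and Clec4f, Adgre1, Cd5l, Vsig4, Marco and Lyz2 had none; the sum was 31.2 to 43.2, 31.8 to 36.4, 33.2 to 35.1 and 45.3 to 62.8 CPM in the same group order. Of the 7 lymphocyte markers only Cd4 and Ptprc had a region. They summed to 65.2 to 66.9 CPM in KO PTU/LID, 94.3 to 128.3 in KO chow, 47.2 to 60.6 in WT PTU/LID and 87.7 to 93.9 in WT chow. The sum was higher in KO than in WT without overlap on each diet, but Ptprc alone was not. On chow Ptprc had 19.4 ± 1.55 CPM in KO against 31.1 ± 3.59 in WT (SD), a log2 fold change of -0.68 ± 0.19 (SE, edgeR adjusted p = 0.0453). On PTU/LID it had 24.3 ± 7.93 in KO against 25.4 ± 2.21 in WT. Cd4 itself was lower on PTU/LID than on chow in KO (-1.05 ± 0.16, log2, SE, edgeR adjusted p = 0.000164) and in WT (-0.999 ± 0.175, adjusted p = 0.00125), and its difference between KO and WT was 0.51 (adjusted p = 0.0923) on PTU/LID and 0.57 (adjusted p = 0.0525, called by DESeq2) on chow. The 2 of 6 cholangiocyte markers with a region, Sox9 and Spp1, summed to 39.6 to 53.0 CPM in KO PTU/LID, 41.6 to 49.2 in KO chow, 47.0 to 63.0 in WT PTU/LID and 33.2 to 43.6 in WT chow. The 3 of 8 stellate markers with a region summed to 10.3 to 25.3 CPM over all 12 libraries. The hepatocyte sums given above overlapped between KO and WT on each diet. By diet they overlapped in WT, while in KO PTU/LID lay above chow. Of the 9 hepatocyte markers tested, edgeR called only Ttr, higher on PTU/LID in both genotypes. Its log2 fold change was 0.45 ± 0.09 in KO (SE, edgeR adjusted p = 0.00383) and 0.445 ± 0.095 in WT (adjusted p = 0.00652). Of all genes, 7% were called by diet in KO and 7.17% in WT. The part of these markers in the differences of Sc5d and Sqle was not tested.

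The genes nearest to the pattern of Sc5d over the 12 libraries, by root mean square difference of centred log2 CPM, were Papss2 (0.0846), Gm42166 (0.103) and Sepsecs (0.113), beside an SD of Sc5d itself of 0.376. For Sqle they were Abcg5 (0.154), Lepr (0.158) and Pdlim1 (0.159), beside an SD of 0.345. These are descriptions over the same 12 libraries, which share depth and chrM share.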

How the data were processed

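H3K27ac was read by ChIP-seq in 12 liver libraries, 4 groups of 3. For 52645 regions, the authors deposited raw counts, whole numbers, in each of these libraries. The build mm10, MACS2 2.1.1, Bowtie2 2.2.1, bedtools 2.26.0, Picard 2.8.1 and bcl2fastq 2.17.1.14 were used per the submitters' processing notes, which give no role or order; how regions were called and merged is not given in the sources used here. Regions were assigned to RefSeq genes of GRCm38.p6, and a region with its midpoint in 2 genes counted for each. Counts of a gene are the sum over its regions. Regions and genes were fitted with edgeR 4.0.16 in R 4.3.3 (TMM factors from the regions, filterByExpr with a minimum count of 10, robust glmQLFit, 1 mean per group, all 12 libraries), with calls at an adjusted p below 0.05. The SE of a log2 fold change is its size divided by the square root of its F. The fits were run on simulated counts with the same spread in every feature and no chrM sets. That is simpler than these data, so it checked the code only. No replicates agreed within sampling noise. Alternatives were other scalings, DESeq2 1.42.0, no filter, a term for or a split by chrM share (threshold 1.5%), other ways to assign regions, and each library left out. Gene lists, members and tests were chosen with earlier results of these data known. The text names all members at gene level, every region called in a comparison and the highest region of each gene. It also names the region nearest each annotated start, except for Sqle and Fdft1, which had no promoter entry to give a start. One gene of the pathway lists is not reported here by name.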

Additional observations from a re-analysis of the deposited data

How the results depend on the processing

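No single value that edgeR called changed sign under any alternative run. Of all 145 single values recomputed, 30 changed sign under at least 1 alternative, none of them called by edgeR in all 12 libraries or under the alternative that changed the sign (Lss by diet in WT, for example, was -0.01, and 0.016 with RLE scaling). Counts of members called moved by more than 1.5 times as follows. With DESeq2, 1 region was called by diet in KO (3 by edgeR) and 2 genes between KO and WT on chow (1 by edgeR), and with only the 2 groups compared in the fit 2 genes also were. With the chrM-set term, 7 regions were called by diet in WT, 8 regions and 2 genes between KO and WT on chow, 1 region for the interaction and 1 gene by diet in KO. Within the higher chrM set, 2 regions and 1 gene were called between KO and WT on PTU/LID, 2 genes between KO and WT on chow, 2 genes by diet in KO and 1 gene for the interaction (Fdft1, -0.62, adjusted p = 0.0495, edgeR). Within the lower set, 6 regions and 2 genes were called by diet in WT. Over regions at gene ends alone, 0 genes were called by diet in WT and 1 between KO and WT on PTU/LID.

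With 1 library left out, the regions called ranged from 0 to 4 by diet in KO, 2 to 5 by diet in WT, 4 to 8 between KO and WT on PTU/LID, 1 to 4 on chow and 0 to 1 for the interaction. The genes ranged from 0 to 2 by diet in WT and 0 to 2 between KO and WT on chow, and stayed at 2 between KO and WT on PTU/LID. The cause of these shifts was not tested. Splits by chrM share leave 1 or 2 libraries in each group but KO chow, whose libraries are all in the higher set. No comparison with KO chow could thus be made in the lower set. A lone library is then assumed to vary like the others. Not counting regions inside a non-coding gene for Sc5d and taking scale factors from gene sums were chosen after seeing the data. Neither moved a gene count. For regions the first was not refitted. It only left out those inside the non-coding gene, so 6 of the 8 called between KO and WT on PTU/LID remained by construction. The second was run on genes only. No paired analysis was possible because no replicate number is shared between the groups compared.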
